A study of Mus musculus with 4 samples.

Results

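The NK and ILC1 cells of the brain and dura mater were 494 of 14586 CD45+ cells that passed the filters of the study, out of 18969 barcodes in 4 libraries. They were chosen by measured values on the deposited natural log scale. A member had at least 3 of 6 genes above 0 (*Ncr1*, *Klrb1c*, *Klre1*, *Prf1*, *Gzma* and *Xcl1*), *Nkg7* at 1 or more, *Cd3e*, *Cd3g* and *Cd79a* at 0, and *C1qa* below 1.5. Members with at least 1 UMI (unique molecular identifier, the tag that counts each captured RNA molecule once) of *Eomes*, 314 cells, were then parted from the 180 members with none. The genes of this rule are described without a test, since they selected the cells.

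The study asked how the dura mater and the brain respond to a photothrombotic injury (PTI), in which light and a dye close vessels beneath the skull. On day 3 after PTI (D3) or after sham surgery (S3), CD45+ hematopoietic cells of adult male C57BL/6J mice, aged 8 to 10 weeks, were sorted by flow cytometry, and their RNA was sequenced on the 10× Chromium platform. The labels call the controls CT, and these were taken as the S3 groups of the paper. Brain S3, brain D3, dura mater S3 and dura mater D3 each have 1 library, and the number of mice in a library is not given in the sources used here. The variation from mouse to mouse is therefore unknown and no P value is given, and every interval below is a 95% interval that covers counting error only.

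Natural killer (NK) cells are lymphocytes that kill infected or stressed cells with perforin and granzymes and release interferon-γ and chemokines. Group 1 innate lymphoid cells (ILC1) share with them the receptor NKp46 (*Ncr1*), NK1.1 (*Klrb1c*) and the transcription factor T-bet (*Tbx21*), but stay in tissues, where they carry CD49a (*Itga1*) and CXCR6. Eomesodermin (*Eomes*) is the transcription factor usually used to tell NK cells, which express it, from ILC1, which mostly do not. Ly49 receptors (Klra genes) and the sphingosine 1-phosphate receptor *S1pr5* belong to circulating mature NK cells.

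The members were 238 cells in brain S3, 125 in brain D3, 65 in dura mater S3 and 66 in dura mater D3. They had median depths of 7276, 5379, 6687 and 6914 UMIs per cell in that order, against 8436, 14641, 9637 and 14264 in all kept cells. Just inside the rule, 14, 5, 2 and 0 members had exactly 3 of the 6 genes, and just outside it 3, 1, 1 and 0 cells had 2. The lowest *Nkg7* value among members was 1.11 and the highest *C1qa* value 1.44. Cells left out for *C1qa* alone numbered 14 in brain S3, 24 in brain D3, 9 in dura mater S3 and 17 in dura mater D3. Their lowest *C1qa* value was 1.57, in brain D3. Cells that met everything but the absence of *Cd3e* and *Cd3g* numbered 172 in brain S3, 38 in brain D3, 34 in dura mater S3 and 16 in dura mater D3. Barcodes shared between libraries numbered 37 over all pairs of libraries, and 4 members carried one.

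The label was set beside its markers, which the rule itself fixed in part. The 5 given markers, (*Ncr1*, *Klrb1c*, *Gzma*, *Prf1* and *Xcl1*), all genes of the rule, summed to between 6465 and 8898 UMIs per 1000000 (CPM) in the members of each library and to between 47.9 and 512.2 CPM in gated T cells, which held *Cd3e* or *Cd3g* and fewer than 3 of the 6 genes. Of 11 T cell markers, *Cd5* and *Cd6* were at 0 in the members of every library, and the list summed to between 868.8 and 1015 CPM, against 4166 to 5162 CPM in the gated T cells. Transcripts of the T cell receptor constant region *Trbc1* were present in 190 of 238 members of brain S3 and in 104, 59 and 56 members of brain D3, dura mater S3 and dura mater D3. In the same order, *Trbc2* was held by 116, 53, 24 and 28 members and *Trdc* by 84, 48, 29 and 33. *Trac* was held by 27, 10, 4 and 15 members, and *Cd3d* by 20, 6, 8 and 5. *Il5* and *Il13*, the cytokines of ILC2, and *Il22*, a cytokine of ILC3, were at 0 in all members. Other genes on the list of 8 ILC2 markers had UMIs in members of every library. The ILC2 list summed to between 205.4 and 262.4 CPM, and the list of 5 ILC3 markers to between 0 and 2.48 CPM.

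Some members also carried markers of other cell types. Markers of monocytes and macrophages summed to 1089 CPM in brain S3, 4658 in brain D3, 1112 in dura mater S3 and 1777 in dura mater D3, and those of neutrophils to 4892, 275.8, 3894 and 671.0 CPM. Markers of B cells summed to 1348, 1731, 216.8 and 232.0 CPM in that order, and those of dendritic cells to 1286, 1657, 125.5 and 192.5 CPM. Members in which markers of other cell types made up more than 0.5% of UMIs were 16 in brain S3, 21 in brain D3, 10 in dura mater S3 and 5 in dura mater D3. Without them the monocyte and macrophage markers summed to 290.4, 854.8, 275.5 and 511.8 CPM in the same order. The B cell markers then summed to 267.7, 223.5, 219.5 and 163.9 CPM, and the dendritic cell markers to 116.0, 106.5, 100.8 and 121.4 CPM. The part that these cells play in a result was not tested, and values without them are given beside many of the results below.

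NK and ILC1 cells made up 6.35% of kept cells in brain S3 (5.59 to 7.18), 2.72% in brain D3 (2.27 to 3.23), 1.82% in dura mater S3 (1.41 to 2.32) and 2.47% in dura mater D3 (1.92 to 3.14). The share in brain D3 lay below that in brain S3 with intervals that did not overlap, while the 2 dura mater shares had overlapping intervals. A share depends on the other cells sorted with the members. For every 100 gated T cells there were 35.6 members in brain S3, 75.8 in brain D3, 33.3 in dura mater S3 and 44 in dura mater D3, so the order of the brain libraries turned when T cells were the reference. The gated T cells themselves fell from 17.8% of kept cells in brain S3 to 3.59% in brain D3.

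Among the members, *Eomes*-positive cells were 58% in brain S3 (51.4 to 64.3), 62.4% in brain D3 (53.3 to 70.9), 72.3% in dura mater S3 (59.8 to 82.7) and 77.3% in dura mater D3 (65.3 to 86.7). In B cells, which should lack the gene, 0.216% had a UMI in brain S3 and none in the other libraries, at median depths of 3534 to 5468 UMIs. With each member thinned to 2000 UMIs the shares were 35.7%, 36%, 35.4% and 42.4%, so the higher share in the dura mater was not seen at that depth in S3, and a cell without an *Eomes* UMI may still express the gene.

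**Figure D1:**
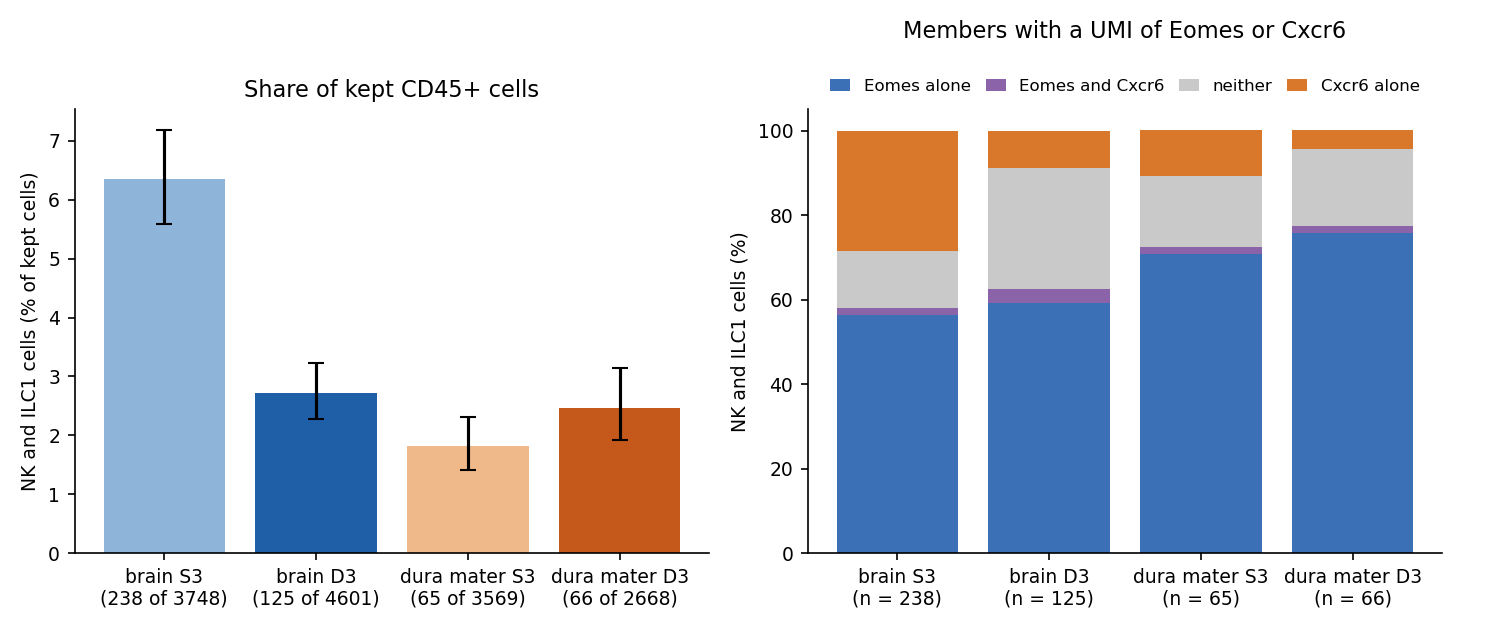
The left panel plots members as a percentage of kept cells in each library with exact binomial 95% intervals. Brain S3 stands highest at 6.35%. The right panel splits the members of each library by whether they held a UMI of *Eomes* or *Cxcr6*, a split chosen after the values were seen, and cells with *Cxcr6* alone reach 28.6% in brain S3 and 8.8% or less in brain D3 and dura mater D3.

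*Eomes*-positive and *Eomes*-0 members differed in the genes of tissue residency. All 14 genes of the ILC1 and residency list with enough UMIs were lower in *Eomes*-positive cells, with counting intervals off 0 when the libraries were pooled, and the median of their log2 ratios was -2.48, beside -0.01 over all 4926 genes tested. Of the 4926 genes, 620 had a pooled interval below 0 and 575 had one above 0. At least 2-fold lower were 71 of the 4926 genes (1.44%), and at least 2-fold higher 65 (1.32%). The ratios were taken within each library and the median over libraries was used, and each library is 1 point.

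*Cxcr6* (chromosome 9, 123806475 to 123811760, plus strand of GRCm38) encodes the receptor for CXCL16 and lies on the same chromosome as *Eomes* (118478212 to 118486132, plus strand). It had 11.8 CPM in *Eomes*-positive and 357.6 CPM in *Eomes*-0 members of brain S3, 17.5 and 110.9 in brain D3, 2.43 and 210.7 in dura mater S3, and 4.39 and 109.7 in dura mater D3. The log2 ratio, -4.92, -2.66, -6.44 and -4.64, was below 0 with its interval in every library, and over all libraries 3.18% of *Eomes*-positive and 49.4% of *Eomes*-0 members held a UMI. In the 4 libraries between 0 and 0.946% of gated B cells did.

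Further genes moved with it in the same direction in all libraries. *Tmem176a* and *Tmem176b*, membrane proteins of innate lymphoid and myeloid cells, had median log2 ratios of -5.17 and -4.06. These genes overlap at their starts, on the plus and minus strands of chromosome 6 (48840919 to 48847071 and 48833818 to 48841496). The phosphatase gene *Inpp4b* was at -3.24, the creatine kinase gene *Ckb* at -3.14, the cytokine signalling inhibitor *Socs2* at -2.74 and the calcium-binding protein *S100a4* at -2.41. *Tcrg-C4*, a constant region of the T cell receptor γ chain, was at -4.30, with 27.2% of *Eomes*-0 members holding a UMI. The interleukin-7 receptor *Il7r* was at -2.60, CD49a (*Itga1*) at -2.35, *Cd200r1* at -2.08 and the transcription factor *Rora* at -1.59. Of these, *Il7r*, *Cd200r1* and *Rora* had an interval off 0 in 2, 3 and 3 libraries. Granzyme C (*Gzmc*), at -3.07, was held by few cells, 22 of the *Eomes*-0 and 10 of the *Eomes*-positive members.

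Higher in *Eomes*-positive members were the proto-oncogene transcription factor *Myb* (2.93), the transcription factor *Tcf7* (1.68) and Ly49 receptors. *Klra4* (chromosome 6, 130043731 to 130067271, minus strand) had 749.5 CPM in *Eomes*-positive and 107.1 in *Eomes*-0 members of brain S3, 637.9 and 298.0 in brain D3, 774.2 and 360.0 in dura mater S3, and 1064 and 548.5 in dura mater D3. Its log2 ratio was largest in brain S3, at 2.81 (2.49 to 3.14), and between 0.96 and 1.10 in the other libraries. *Klra8* had a median of 1.39, *Klra3* of 2.09, *Klra7* of 1.62 and *Klra1* of 1.64. The Ly49 genes are near-identical copies in 1 cluster, so reads may be assigned to the wrong copy and the values of single members are uncertain. Of the 15 genes on the Ly49 and NKG2 list with enough UMIs, 9 were higher and 4 lower by their pooled intervals. Over all 4926 genes, 575 were higher and 620 lower in this way.

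T-bet (*Tbx21*) had a median log2 ratio of -0.64. The next 3 genes belong to the rule and are a description only. NKp46 (*Ncr1*) had a median of -0.20. Granzyme A (*Gzma*) was at 1.73 in brain S3 and at -0.03 and -0.10 in brain D3 and dura mater D3. The chemokine XCL1 (*Xcl1*) was lower in *Eomes*-positive members in 3 libraries and at 0.09 (-0.09 to 0.26) in brain D3. Cell cycle genes were higher in *Eomes*-positive members for 14 of 14 genes when pooled, beside 575 of all 4926 genes, with a median of 1.18. Few brain members held *Mki67*, as given below, so these counts may rest on few cells. In dura mater D3, however, the list was at -0.86 and *Top2a*, the DNA topoisomerase of dividing cells, at -0.92.

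**Figure D2:**
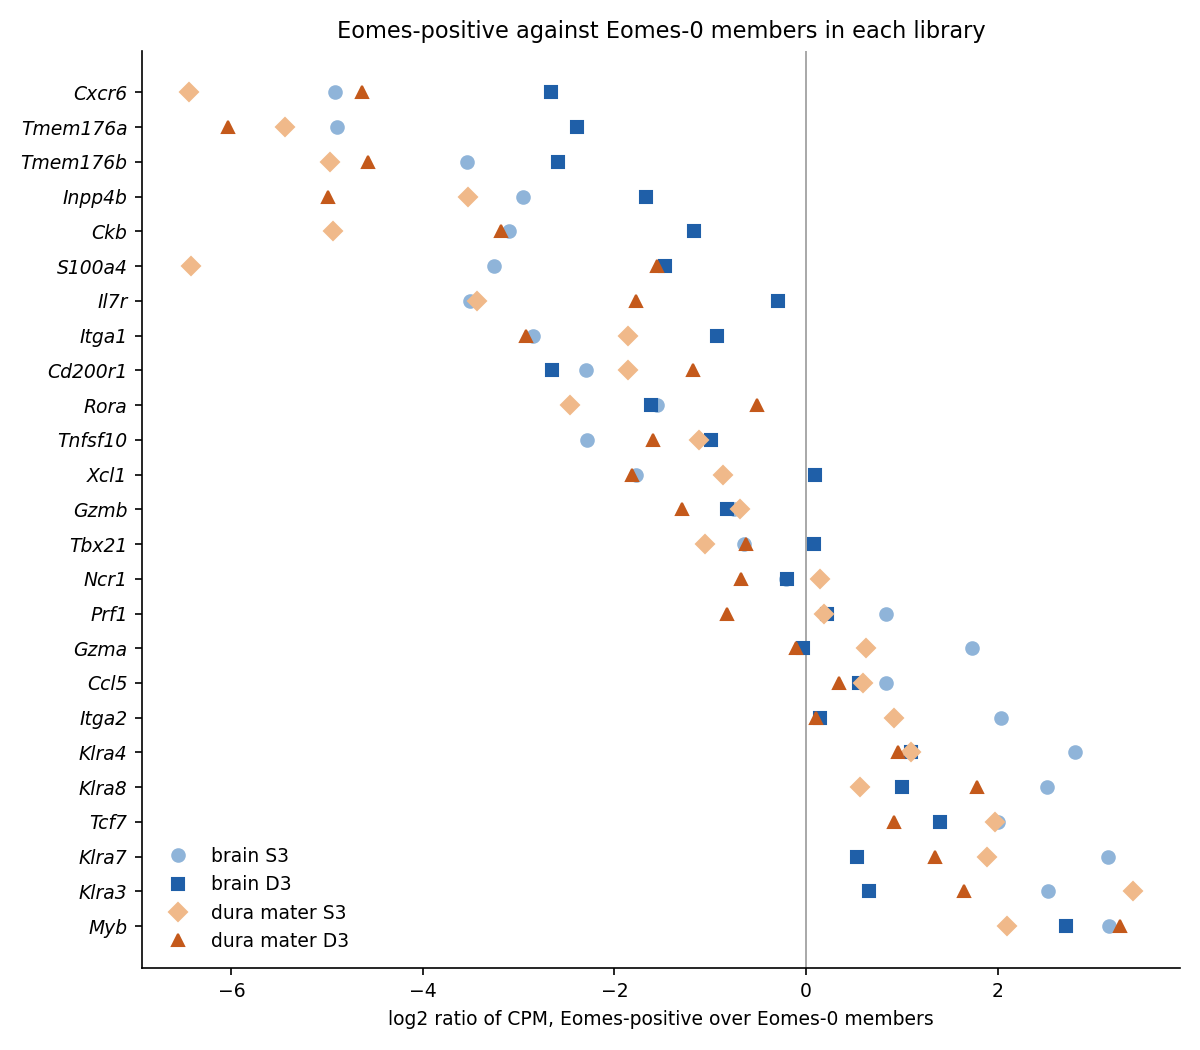
Each point is the log2 ratio of CPM in *Eomes*-positive over *Eomes*-0 members of 1 library, for 25 genes named in the text or on the lists. A side without UMIs was set to 3 UMIs, and counting intervals are not drawn. The 10 genes from *Cxcr6* to *Rora* lie left of 0 in all 4 libraries, *Cxcr6* between -6.44 and -2.66, and the Ly49 genes lie right of 0.

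After the split was seen, *Cxcr6* was taken as a gene that parted the members clearly, and they were also sorted by *Eomes* and *Cxcr6* together. In brain S3, 134 of 238 cells had *Eomes* alone, 68 had *Cxcr6* alone (28.6%, 22.9 to 34.8), 32 had neither and 4 had both. In brain D3 the cells with *Cxcr6* alone were 11 of 125 (8.8%, 4.48 to 15.2), in dura mater S3 7 of 65 (10.8%, 4.44 to 20.9) and in dura mater D3 3 of 66 (4.55%, 0.947 to 12.7). Cells with *Cxcr6* alone therefore took a larger share of members in brain S3 than in each of the other libraries, with intervals that did not overlap. Cells with neither gene went the other way in the brain, from 13.4% (9.38 to 18.4) in S3 to 28.8% (21.1 to 37.6) in D3. Their median depths were 5288 and 4505 UMIs, and a cell without a UMI of a gene may still express it. Cells with both genes were 4 or fewer in each library.

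Within brain S3, where the *Cxcr6* class had enough cells, the classes were set side by side. *Klra4* was held by 53% of cells with *Eomes* alone and by 0 of 68 cells with *Cxcr6* alone, which allows a share of cells with a UMI of up to 4.41% (3 cells of 68) and an exact upper limit of 5.28%. *Klra8* was at 66.4% and 1.47%, the collagen-binding integrin CD49b (*Itga2*) at 41.8% and 5.88%, and *S1pr5* at 26.9% and 1.47%. These genes of circulating NK cells thus lay almost wholly outside the *Cxcr6* class. In the other direction stood *S100a4* at 18.7% and 95.6%, *Tmem176b* at 8.96% and 88.2%, *Ckb* at 8.96% and 82.4%, and *Inpp4b* at 8.21% and 80.9%. The residency integrin CD49a (*Itga1*) was at 7.46% and 63.2%, *Rora* at 16.4% and 57.4%, and *Il7r* at 2.24% and 32.4%. *Tbx21* was at 52.2% and 67.6%. Cells with *Cxcr6* alone were deeper than those with *Eomes* alone, with medians of 9015 and 6940 UMIs. Gated B cells of brain S3, at 4844 UMIs, held *Tmem176b* in 6.26% and *S100a4* in 7.56%.

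The 32 cells with neither gene lay between the classes for some genes and not for others. Their shares were 25% for *Klra4*, 21.9% for *Tmem176b* and 53.1% for *S100a4*, all between those of the other classes, but 68.8% for *Tbx21* and 15.6% for *Rora*, and their median depth was 5288 UMIs. Granzyme B (*Gzmb*) was at 1645 CPM in these cells, 587 in cells with *Eomes* alone and 738.5 in cells with *Cxcr6* alone, and was held by 62.5%, 71.6% and 30.9% of the cells.

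**Figure D3:**
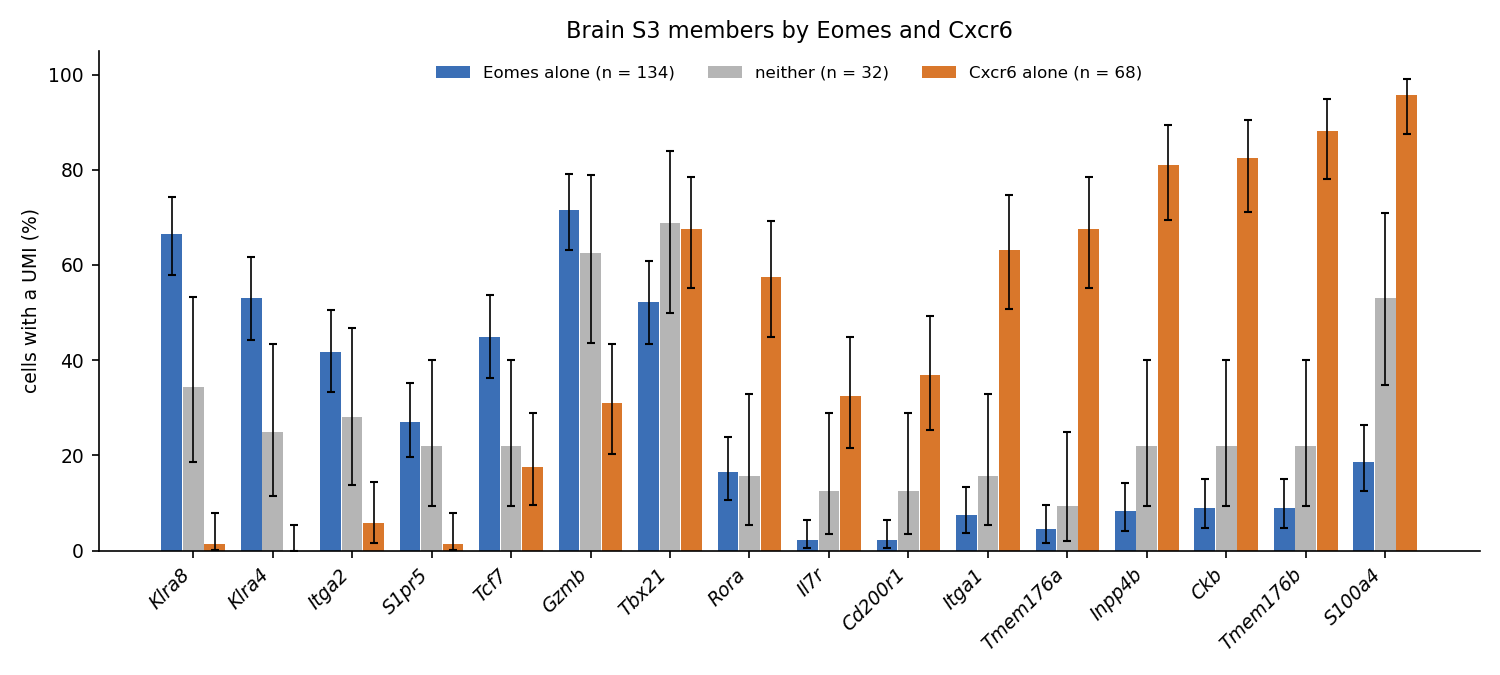
Bars give the percentage of brain S3 members with a UMI of each of 16 genes, with exact binomial 95% intervals, for cells with *Eomes* alone, neither gene or *Cxcr6* alone. Genes of circulating NK cells stand on the left, with *Klra8* at 66.4% and 1.47%, and residency genes on the right, with *Tmem176b* at 8.96% and 88.2%.

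In the brain, granzyme B and interferon-γ were higher in the D3 library than in the S3 library, and *Cxcr6* and *Inpp4b* were lower. Granzyme B (*Gzmb*, chromosome 14, 56258838 to 56262260, minus strand), a protease that triggers death of the target cell, was at 721 CPM (684.4 to 759) in brain S3 and 1142 (1074 to 1212) in brain D3. The log2 ratio was 0.66 (0.55 to 0.78) and 0.70 without members rich in markers of other cells. A UMI of it was held by 58.4% and 72.8% of members, and by 0% of gated B cells in both libraries. Among gated T cells, *Gzmb* was also higher in D3, by 1.91 on the log2 scale. As a description only, the rule genes perforin (*Prf1*) and *Gzma* went from 454.5 to 764.9 CPM and from 4415 to 5836 CPM. Interferon-γ (*Ifng*, chromosome 10, 118441046 to 118445892, plus strand) was at 501.6 CPM in S3 and 750.1 in D3, a log2 ratio of 0.58 (0.44 to 0.72), although the share of members with a UMI was 71% and 69.6%.

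Of 19 cytotoxic genes, 9 were higher in brain D3 and 3 lower with an interval off 0, where 13.1% of all 3873 genes were higher and 10.4% lower in this way. The list had a median of 0.28, beside 0.02 over all genes. Without the members rich in other markers the median was 0.30, with 5 higher and 2 lower, and no share over all genes was taken for these counts. The serpins *Serpinb9* (0.33) and *Serpinb6b* (0.27), inhibitors of granzymes, and the cystatin *Cst7* (0.54) were higher in all members and at 0.53, 0.48 and 0.56 without those rich in other markers. The lysosomal genes *Lamp1* and *Ctsc* were higher by 1.16 and 1, but at 0.25 and 0.06 without those members. *Rab27a*, needed to dock granules, was lower, at -0.97 (-1.69 to -0.30), and at -0.97 without those members. Among genes of mature NK cells, the transcription factor *Irf8* went from 639.1 to 951.6 CPM, with a log2 ratio of 0.57, and the protease *Cma1* was higher by 0.95 (0.60 to 1.30). Without those members they were at 0.73 and 1.

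The chemokines did not follow the granzymes. *Ccl3*, which attracts monocytes and T cells, was at 1373 CPM in brain S3 and 1026 in brain D3, a log2 ratio of -0.42 (-0.53 to -0.31). *Ccl4* was at 3839 and 3361 CPM, with -0.19 (-0.25 to -0.13), or -0.24 without members rich in other markers, and *Ccl5* at 8024 and 8167 CPM, with 0.03 (-0.01 to 0.06). Of the 15 cytokine and chemokine genes with enough UMIs, 5 were higher and 5 lower, beside the 13.1% and 10.4% of all genes. The rule gene *Xcl1* is on this list, so its counts are a description only. Among the receptors, NKG2A (*Klrc1*) and NKG2C (*Klrc2*), close copies of each other, were lower by -0.61 and -0.74 on the log2 scale, and 7 of 16 genes on the Ly49 and NKG2 list were lower and 2 higher, with a median of -0.21 that became -0.04 without the members rich in other markers.

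*Cxcr6* was at 154.3 CPM (137.6 to 172.5) in brain S3 and 48.8 (35.7 to 65.1) in brain D3, a log2 ratio of -1.66 (-2.14 to -1.21) and -1.51 without members rich in other markers. It was held by 30.3% of members in S3 and 12% in D3. Within *Eomes*-0 members alone the ratio was -1.69, and within *Eomes*-positive members, which held few of its UMIs, it was 0.57. Gated T cells had 322.3 and 327.7 CPM of *Cxcr6*, a ratio of 0.02. *Inpp4b* was lower by -1.35 (-1.88 to -0.85). Of the 15 residency genes, 7 were lower in brain D3 and 1 was higher, beside 10.4% and 13.1% of all genes, with a median of -0.35, or -0.52 without the members rich in other markers.

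Over the whole table, 69 of 3873 genes (1.78%) were at least 2-fold higher in brain D3 and 33 (0.852%) at least 2-fold lower. Without members rich in other markers 9 of 3222 genes were higher and 21 lower. The 12 named genes that were highest in D3 had smaller ratios without those members. *Pf4*, a chemokine of platelets and macrophages, had a log2 ratio of 6.36, with 95.9% of its 268 UMIs in 5 cells of brain D3, and stood at 2.06 without the members rich in other markers. *Arg1*, the arginase of alternatively activated macrophages, went from 4.76 to 0.30, and *Tgfbi*, *Basp1* and *Lgals3*, at 2.56, 2.44 and 2.28, went to 0.60, 0.08 and 0.68. *Hmox1*, *Ccl9*, *Lgmn*, *Ctsl*, *Cxcl2* and *Plin2* had ratios between 2.33 and 4.03 and between 1.06 and 2.25 without them.

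Osteopontin (*Spp1*, chromosome 5, 104435118 to 104441050, plus strand), a secreted phosphoprotein that activated macrophages make in quantity, was at 5.95 CPM in brain S3 and 267.4 in brain D3. It kept a ratio of 4.36 without the members rich in other markers, from 5.49. It was held by 45.6% of members of brain D3, but also by 48.5% of gated B cells of that library, at a median depth of 3534 UMIs against 5379, and the ratio in gated B cells was 5.10. As the share did not exceed that in B cells, it was not read as expression by the members, and its source was not tested.

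Among the named genes lower in brain D3 were *G0s2*, with 2 UMIs in D3 and 147 in S3 and a ratio of -5.10 (-8.16 to -3.22), *Gstp1* (-1.71), *Cxcr6*, *Gadd45g* (-1.52), *Tmem71* (-1.49), *Grcc10* (-1.44), *Hspa1b* (-1.38), *Inpp4b*, *Pacs1* (-1.31), *B930036N10Rik* (-1.30) and *AC163354.1* (-1.28). *Gstp1*, *Grcc10* and the heat shock gene *Hspa1b* were lower by similar amounts in gated T cells, at -1.69, -1.43 and -1.31. *Cxcr6*, *Gadd45g* and *Pacs1* were at 0.02, 0.78 and -0.01 there. Genes of glycolysis and hypoxia had a median of 0.59 with 12 of 22 higher, and of 0.13 with 1 higher without the members rich in other markers. Of 16 cell cycle genes 10 were higher, with a median of 0.46, and 12 without those members. The proliferation marker *Mki67* was, however, held by 5.6% of members in D3 and 7.14% in S3. Both lists stand beside 13.1% of all 3873 genes with an interval above 0, a share that was not taken without those members.

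In the dura mater, *Gzmb* had the largest ratio of D3 over S3 among the 1605 genes with at least 100 UMIs. It was at 228.2 CPM (189.2 to 272.8) in dura mater S3 and 715.9 (647.3 to 789.8) in dura mater D3, a log2 ratio of 1.65 (1.35 to 1.96), and 1.82 without members rich in other markers. The gene was held by 46.2% of members in S3 (33.7 to 59) and 75.8% in D3 (63.6 to 85.5), and by 30.8% and 54.5% after thinning. Within *Eomes*-positive members alone the ratio was 1.49, while gated T cells had 31.5 and 11 CPM. The activation receptor 4-1BB (*Tnfrsf9*) was at 36.1 and 113.3 CPM, a ratio of 1.65 (0.89 to 2.47), below the limit of 100 UMIs, and was held by 20% and 19.7% of members. Of 14 cytotoxic genes with enough UMIs 1 was higher and 2 were lower, where 8.47% of all genes had an interval above 0 and 8.47% below. The list had a median of 0.03.

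Interferon-γ went the other way. *Ifng* was at 414.5 CPM in dura mater S3 and 122.3 in D3, a log2 ratio of -1.76 (-2.18 to -1.36), and -1.95 without the members rich in other markers. In S3, 5 cells held 78.0% of its UMIs, and the share of members with a UMI was 49.2% (36.6 to 61.9) in S3 and 36.4% (24.9 to 49.1) in D3, with intervals that overlap. The level thus rested on few cells, and the share of cells was not separated at this depth. The transcription factors *Myc* and *Jun* were lower, at -2.35 (-3.91 to -1.06) and -1.06 (-1.44 to -0.70), and *Nfil3*, which NK cells need to develop, was higher at 0.86 (0.27 to 1.47).

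Among Ly49 genes of the dura mater, *Klra4* was at 684.5 CPM in S3 and 971.4 in D3, a log2 ratio of 0.50 (0.31 to 0.70), or 0.41 without members rich in other markers, and *Klra3* was higher by 0.55 (0.13 to 0.97). Of 15 genes on the list, 2 were higher and 2 lower. Of the 13 residency genes with enough UMIs, 4 were lower and 1 higher, beside 8.47% of all genes in each direction, with a median of -0.40 that was 0.03 without the members rich in other markers. *Ccl3* and *Ccl4* had intervals across 0, at -0.27 (-0.73 to 0.18) and -0.14 (-0.33 to 0.04).

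Few genes were apart in the dura mater. Of 1605 genes, 7 (0.436%) were at least 2-fold higher in D3 and 8 (0.498%) lower. Named as higher beside *Gzmb* were the histone gene *Hist1h2ap* (1.48), *Klf4* (1.34), *Ifitm2* (1.16), *Lgals3* (1.16), *Fgl2* (1.15) and *Hnrnpab* (1.03). The ratio of *Ifitm2* turned to -0.12 when each cell had equal weight and to -1.11 after thinning. Named as lower were *Hspa1a*, *Ifng*, *Il1b* and *Jun*, while *Hspa1b* and 3 neutrophil markers made up the rest of the lower genes. *Hspa1a*, a heat shock chaperone, was at -4.15, but 5 cells held 96.8% of its UMIs in dura mater S3 and gated B cells had a ratio of -4.21. The interleukin-1β gene *Il1b* was at -1.61, and at 0.27 without the members rich in other markers.

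**Figure D4:**
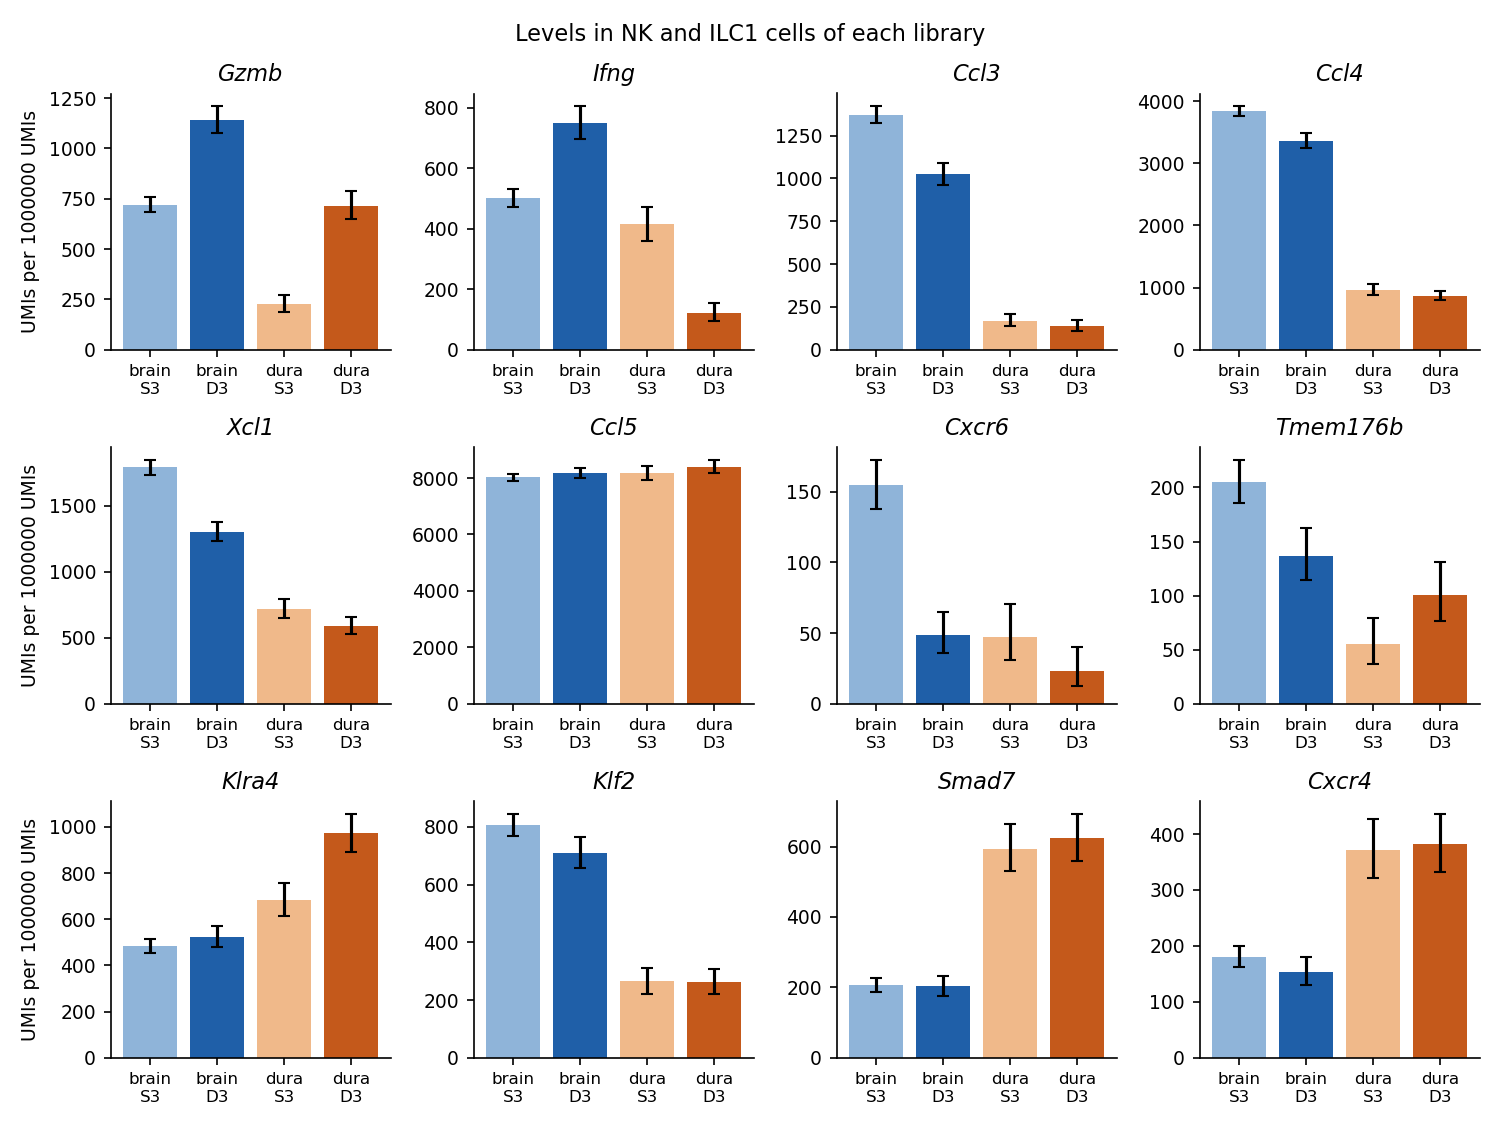
Bars give the level of 12 genes in the summed members of each library in UMIs per 1000000, with exact Poisson 95% intervals. Granzyme B is higher in D3 than in S3 in both tissues, *Ifng* is higher in brain D3 and lower in dura mater D3, and *Ccl3* and *Ccl4* are several times higher in both brain libraries than in both dura mater libraries.

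Between the tissues, *Ccl3* and *Ccl4* were lower in the dura mater in both conditions. *Ccl3* (chromosome 11, 83647844 to 83649355, minus strand) was at 169.2 CPM in dura mater S3 and 1373 in brain S3, and at 140.3 and 1026 CPM in D3. The log2 ratios were -3.02 (-3.34 to -2.72) and -2.87 (-3.22 to -2.54), and -3.02 and -2.93 without the members rich in other markers. Its UMIs were in 35.4% of dura mater S3 members and 74.8% of brain S3 members. In gated B cells they were in 5.67% and 19.7%, so the brain library also had more of the gene outside the members. The neighbouring *Ccl4* (83662584 to 83664683, plus strand) had ratios of -2 and -1.95, and the rule gene *Xcl1* of -1.32 and -1.15. *Ccl5*, at 8187 and 8024 CPM in S3, had a ratio of 0.03 (-0.02 to 0.08). Of 13 genes on the cytokine list in D3, 9 were lower in the dura mater and 0 higher, 8 of them at least 2-fold, beside 11.8% of all genes lower and 15.8% higher, with a median of -1.15. The list holds the rule gene *Xcl1*, and also *Spp1*, which was not read as expression by the members. These counts and the median are therefore a description only.

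In S3, granzyme B was lower in the dura mater (-1.66, -1.94 to -1.39), as was granzyme C, with 4 UMIs in 1 dura mater cell and 258 in the brain. In D3 the ratio of *Gzmb* was -0.67 (-0.84 to -0.51). Interferon-γ was lower by -0.28 (-0.49 to -0.06) in S3 and by -2.62 (-3.00 to -2.26) in D3. Perforin, a rule gene, was at -0.15 (-0.37 to 0.06) and -0.45 (-0.65 to -0.26).

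The residency list was lower in the dura mater, with 11 of 15 genes lower and 1 higher in S3 and a median of -1.26, and with 8 lower and 0 higher in D3 and a median of -0.79. Over all genes 7.61% were lower and 13% higher in S3, and 11.8% and 15.8% in D3. Without members rich in other markers the medians were -1.69 and -1.28. In S3, *S100a4* (-2.30), *Ckb* (-1.91), *Tmem176b* (-1.89) and *Cxcr6* (-1.70) were lower in members of the dura mater, while in gated T cells the same genes were higher there, at 1.03, 1.37, 1.23 and 0.89. The exception was *Rora*, higher in dura mater S3 by 0.62 (0.20 to 1.04).

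Higher in the dura mater in both conditions were *Smad7*, an inhibitor of TGF-β signalling, the Notch target *Nrarp* and the chemokine receptor *Cxcr4*. *Smad7* was at 593.2 CPM in dura mater S3, 206.4 in brain S3, 624.2 in dura mater D3 and 202.6 in brain D3, log2 ratios of 1.52 (1.31 to 1.74) and 1.62 (1.36 to 1.89), and of 1.5 and 1.39 without members rich in other markers. It was held by 93.8% and 92.4% of dura mater members and by 70.6% and 62.4% of brain members. Gated T cells had ratios of 0.97 and 1.26. *Nrarp* was at 114.1 and 118.7 CPM in the dura mater and 37.7 and 37.1 in the brain, with ratios of 1.60 and 1.68, of 1.64 and 1.48 without those members, and in gated T cells of -1.57 and -1.47. *Cxcr4* had ratios of 1.04 (0.78 to 1.30) and 1.31 (1 to 1.62), and of 1.11 and 1.55 without those members. CD49b (*Itga2*) was higher by 1.13 and 1.12. The transcription factor *Klf2*, which keeps lymphocytes in circulation, was at 264.3 and 260.8 CPM in the dura mater and 805.3 and 709.8 in the brain, ratios of -1.61 and -1.44, and was lower in gated T cells as well, by -2.92 and -2.16.

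The other named genes that were higher in dura mater S3 were *Cwc25* (1.80), the nuclear receptor *Nr4a3* (1.52), *Mir142hg* (1.49), *Vegfa* (1.45), *Tubb4b* (1.42), *Parp14* (1.34), *Pmepa1* (1.32), *Scd2* (1.30), *Gm26740* (1.25) and *Tgif1* (1.23). *Vegfa*, the vascular growth factor, was at 114.1 CPM in dura mater S3 and 41.7 in brain S3, and at 77.3 and 79.6 CPM in D3, where the ratio was -0.04 (-0.62 to 0.52). *Pmepa1* and *Tgif1*, like *Smad7*, are known to respond to TGF-β or to restrain its signalling. In all, 34 of 3441 genes (0.988%) were at least 2-fold higher in dura mater S3 and 58 (1.69%) lower, with 36 and 47 of 3036 genes without members rich in other markers. The other named genes that were lower were *Tnfsf9* (-2.25), *Dnajb1* (-2.11), *Rhob* (-2.05), *Fgl2* (-1.88), *Hspa1b* (-1.87), *Ramp1* (-1.75) and *Tnfaip8* (-1.75). By their intervals, 10 of 12 heat shock genes were lower in dura mater S3, beside 7.61% of all 3441 genes. *Hspa1b* was lower in gated T and B cells of the dura mater as well, by -2.95 and -3.56.

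In D3, 30 of 2206 genes (1.36%) were at least 2-fold higher in the dura mater and 76 (3.45%) lower, and 17 and 20 of 1681 genes without members rich in other markers. Beside *Smad7*, *Nrarp* and *Cxcr4*, the named higher genes included *Hist1h2ap* (1.88), *Irf2bpl* (1.81), *Hmgn5* (1.36), *Sik1* (1.35), *Rrad* (1.27), *Hivep2* (1.25), *B4galt1* (1.21) and *Uhrf2* (1.21). The named lower genes beside *Ccl3* and *Ifng* were *Arg1* (-6.71), *Spp1* (-6.22), *Hspa1a* (-4.87), *Cxcl2* (-3.68), *Pf4* (-3.50), *Hspa1b* (-3.22), *Il1b* (-2.86), *Lgmn* (-2.81), *Gm2a* (-2.74) and *Plin2* (-2.72). Without the members rich in other markers, *Cxcl2* and *Pf4* were at 0.20 and 0.67, and *Arg1* at -2.27.

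**Figure D5:**
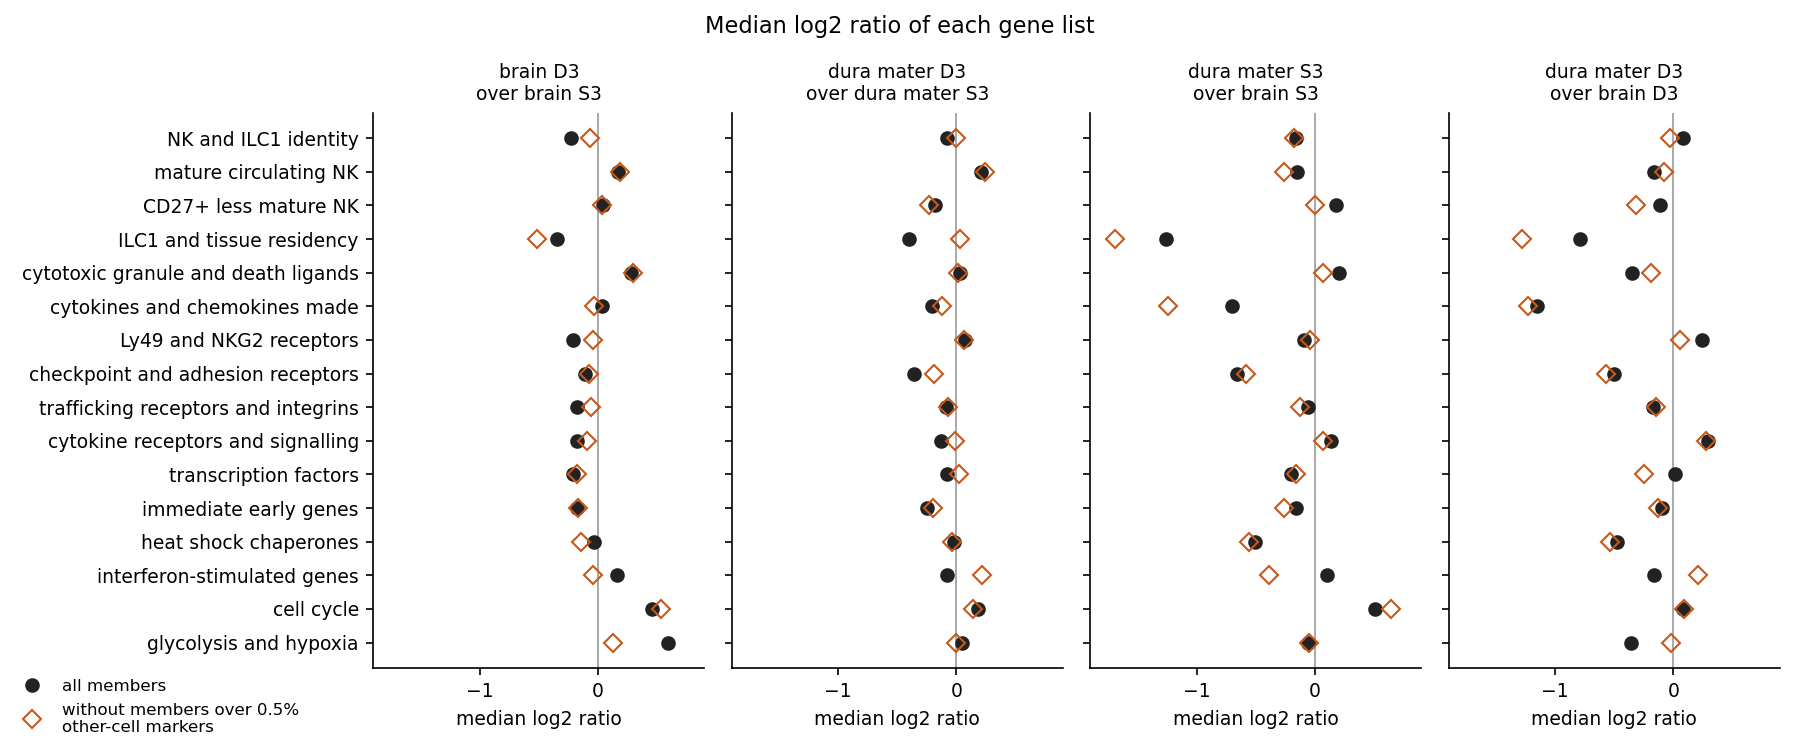
Each row is 1 of 16 gene lists and each panel 1 comparison of libraries. The horizontal axis is the median log2 ratio over the genes of the list, for all members (filled circles) and without members in which markers of other cells exceed 0.5% of UMIs (open diamonds). The residency list and the cytokine list, which holds the rule gene *Xcl1*, lie left of 0 in both comparisons of the tissues. The glycolysis list moves from 0.59 to 0.13 in the brain.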

How the data were processed

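CD45+ single cells of 4 libraries were measured. The authors mapped reads to mm10 with Cell Ranger 3.1.0 and normalized them in Seurat 3.1.0, per the submitters' processing notes. Each deposited value is a natural log, ln(1 + 10000 × the fraction of the cell's UMIs that fell on the gene). The design had assumed raw counts, so UMIs were recovered by taking the lowest value in each cell as 1 UMI, after which all values were whole within 1e-06. The libraries held 49003977 UMIs (brain S3), 115154317 (brain D3), 54749012 (dura mater S3) and 55887697 (dura mater D3).

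Kept cells had 1001 to 5999 detected genes, and their mitochondrial UMIs did not exceed 7%. The methods name doublet removal with Scrublet, and it is not stated whether it preceded deposit. Scrublet in scanpy 1.11.5, with its automatic threshold, marked under 0.5% of each library, so as an alternative the barcodes with the top scores were left out, 0.8% for every 1000 barcodes.

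UMIs were summed over members and given per 1000000 (CPM), with exact Poisson intervals, exact binomial intervals for shares and exact conditional intervals for ratios of counts. A group at 0 was set to 3 UMIs. Counts of genes at least 2-fold apart cover genes whose UMIs in both groups together reach 100, and lists use genes that reach 20. The list of cytokines and chemokines holds the rule gene *Xcl1*, so all its counts and medians are a description only. Named were up to 12 genes per direction with a ratio of at least 2-fold, an interval off 0 and a UMI in at least 10 members and 10% of members of the higher group, without rule genes, markers of other cells, mitochondrial or ribosomal genes, and also genes of the 16 lists. In the *Eomes* split the sign had to be the same in each library with enough cells, brain S3 and brain D3. The members and lists were chosen with earlier results of these data known. Symbols were matched to GENCODE vM21 (GRCm38) for positions. Gated T cells held *Cd3e* or *Cd3g*, at least 2 of *Cd3e*, *Cd3g*, *Cd3d*, *Trac*, *Trbc1* and *Trbc2*, and under 3 of the 6 genes, without *Cd79a*. Gated B cells held *Cd79a*, *Cd79b* and *Ms4a1* without *Cd3e*, *Cd3g* and *Nkg7*. Granulocytes had *S100a8* and *S100a9* at 3 or more. The software was Python 3.11.15 (scipy 1.17.1, numpy 2.4.6, pandas 2.3.3, matplotlib 3.10.9), and the steps were tested on simulated data. Results for some genes that met the naming rule or stood on a list are not reported here.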

Additional observations from a re-analysis of the deposited data

Results flagged for a closer look

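For 10 genes the ratio of D3 over S3 had an interval on opposite sides of 0 in the brain and the dura mater. The 10 genes were not set beside a share over all genes. Each tissue has 1 library per condition, so none of these differences was tested. The brain minus dura mater difference was 2.34 for *Ifng*, from 0.58 in the brain and -1.76 in the dura mater. It was 3.76 for *Cxcl2*, 3.46 for *Plin2*, 2.30 for *Il1b*, 2.30 for *Ifi27l2a* and 2.09 for *Isg15*, which were higher in brain D3 and lower in dura mater D3. It was -3.53 for *Gstp1*, -2.01 for *Hist1h2ap*, -1.94 for *Fgl2* and -1.45 for *Tmem176b*, which were lower in brain D3 and higher in dura mater D3.

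Without members rich in markers of other cells, the ratios of *Ifng* were 0.88 in the brain and -1.95 in the dura mater, and those of *Tmem176b* were -0.98 and 2.15. In the dura mater, *Tmem176b* was held by 12 of 65 members in S3 (18.5%, 9.92 to 30) and 10 of 66 in D3 (15.2%, 7.51 to 26.1). Its higher level there thus rested on few cells and was not seen in the share of cells. The interferon-stimulated gene *Ifi27l2a* was then at -0.03 and 0.09, *Isg15* at 0.59 and -0.51, *Cxcl2* at 1.56 and 2.94, and *Il1b* of the dura mater at 0.27.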

How the results depend on the processing

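Of 1499 values recomputed under alternatives, 1243 stayed within their spread, 245 moved and 11 turned direction. With *Cd3d*, *Trac*, *Trbc1*, *Trbc2* and *Trdc* also at 0 the shares of members were, for the brain, 0.427% (S3, 16 cells) and 0.152% (D3, 7 cells) and, for the dura mater, 0.028% (S3, 1 cell) and 0.187% (D3, 5 cells), so no expression was computed under it. With *Cd3d* and *Trac* at 0 (added after seeing the data) it was 5.15% in brain S3 and 1.8% in dura mater D3, without the filter on cells 5.22% in brain S3 and 2.18% in brain D3, without members rich in other markers 2.26% in brain D3, and outside granulocytes 7.47% in brain S3, 2.37% in dura mater S3 and 3.16% in dura mater D3. Requiring 2 *Eomes* UMIs gave 43.3%, 37.6% and 59.1% *Eomes*-positive cells in brain S3, brain D3 and dura mater D3, and thinning gave 35.7%, 36%, 42.4% and 35.4% (dura mater S3). Genes at least 2-fold apart, 102 in brain D3 over S3, were 54 with the highest Scrublet scores removed, 30 without members rich in other markers, 12 after thinning, 56 at 200 UMIs and 3029 with no limit and a pseudocount of 0.5. In dura mater D3 over S3 they were 15, and 41 without the filter on cells, 9 without high Scrublet scores, 7 with *Cd3d* and *Trac* at 0, 4 after thinning, 9 at 200 UMIs and 3195 with no limit. In dura mater S3 over brain S3, from 92, they were 27 after thinning, 51 at 200 UMIs and 2629 with no limit. In dura mater D3 over brain D3, from 106, they were 37 without members rich in other markers, 24 after thinning, 57 at 200 UMIs and 2944 with no limit. With *Eomes*-positive members alone (added after seeing the data), *Cxcr6* and *AC163354.1* turned in brain D3 over S3, to 0.57 and 0.75. In dura mater D3 over S3, *Ifitm2* turned to -0.09 without high Scrublet scores, -1.37 with *Cd3d* and *Trac* at 0, -0.12 with equal weight per cell and -1.11 after thinning, *Lgals3* to -0.20 with *Cd3d* and *Trac* at 0, and *Il1b* to 0.27 without members rich in other markers. In dura mater D3 over brain D3, *Cxcl2* turned to 0.20 without those members and *Pf4* to 0.67, or 0.56 without high Scrublet scores. The cause of each change was not tested. *Eomes*-0 members alone were not compared between libraries of the dura mater, which held 18 and 15 of them. No paired analysis was possible because each condition has 1 library.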

Other observations

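Checkpoint and adhesion receptors had a median log2 ratio of dura mater over brain members of -0.66 in S3, where 5 of 14 genes were lower and 1 higher, and of -0.50 in D3, where 3 of 11 were lower and 0 higher. Over all genes 7.61% were lower and 13% higher in S3, and 11.8% and 15.8% in D3. Cytokine receptors and their signalling genes stood at 0.14 and 0.29, with 8 of 26 higher and 2 lower in S3 and 7 of 25 higher and 2 lower in D3. The interleukin-18 receptor chain *Il18rap*, which lets NK cells respond to interleukin-18, was at 192.5 CPM in dura mater D3 and 113.5 in brain D3, a ratio of 0.76 (0.36 to 1.16). The transcription factors *Ets1* and *Maf* were lower in brain D3 than in brain S3, at -0.90 (-1.12 to -0.69) and -1.19 (-1.69 to -0.73), and at -0.73 and -1.39 without members rich in other markers. In gated T cells they were at -0.76 and 0.34.

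Further lists are given by their median log2 ratios in the order brain D3 over S3, dura mater D3 over S3, dura mater over brain in S3, and dura mater over brain in D3. The list of NK and ILC1 identity had medians of -0.23, -0.08, -0.16 and 0.08, that of mature circulating NK cells 0.17, 0.21, -0.15 and -0.16, and that of less mature CD27+ NK cells 0.04, -0.18, 0.18 and -0.11. Without members rich in other markers they were -0.07, 0.00, -0.18 and -0.03 for identity, 0.19, 0.24, -0.26 and -0.08 for mature cells, and 0.03, -0.23, 0.00 and -0.32 for CD27+ cells. Trafficking receptors and integrins stood at -0.18, -0.09, -0.06 and -0.17. Among them *S1pr1*, which guides lymphocytes out of tissues, was higher in the dura mater by 1.47 (0.68 to 2.24) in S3 and 1.26 (0.11 to 2.46) in D3, and in gated T cells it was lower there, at -1.49 and -1.68. Transcription factors had medians of -0.21, -0.08, -0.20 and 0.01, and of -0.18, 0.02, -0.16 and -0.25 without those members. Of 20 immediate early genes 9 were lower and 3 higher in brain D3 and 7 lower and 2 higher in dura mater D3, beside 10.4% and 13.1% of all genes in the brain and 8.47% each way in the dura mater, with medians of -0.18 and -0.25, and -0.16 and -0.10 between the tissues. Heat shock chaperones had medians of -0.03 and -0.02 over time and of -0.51 and -0.48 between the tissues.

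Interferon-stimulated genes had medians of 0.16, -0.08, 0.10 and -0.16 in the same order, and of -0.04, 0.22, -0.39 and 0.21 without members rich in other markers, so the sign turned in all 4. *Isg15*, a ubiquitin-like protein induced by interferon, was at 70.0 CPM in brain S3, 141.1 in brain D3, 91.3 in dura mater S3 and 43.2 in dura mater D3. *Bst2*, the virus-tethering protein tetherin, was at 141.4, 158.1, 49.4 and 122.3 CPM, with a ratio of D3 over S3 of 1.31 in the dura mater and 0.16 (-0.13 to 0.45) in the brain. Cell cycle genes stood at 0.18 in dura mater D3 over S3, and at 0.51 and 0.08 between the tissues, and the Ly49 and NKG2 list at -0.09 and 0.24. Glycolysis and hypoxia genes were at 0.05 in the dura mater over time and at -0.06 and -0.36 between the tissues. Without members rich in other markers the medians between the tissues were -0.05 and -0.02. Cytotoxic genes stood at 0.20 and -0.35 between the tissues, and cytokines and chemokines at -0.21 in the dura mater over time and -0.70 between the tissues in S3. Checkpoint and adhesion receptors stood at -0.11 and -0.36, and cytokine receptors at -0.18 and -0.13, for D3 over S3 in the brain and the dura mater.

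In the split by *Eomes*, lists not given above had median log2 ratios of 0.32 for mature circulating NK cells, 0.30 for CD27+ NK cells, -0.31 for identity, -0.21 for cytotoxic genes, -0.35 for cytokines and chemokines, -0.52 for checkpoint and adhesion receptors and -0.56 for interferon-stimulated genes. Trafficking receptors stood at 0.15, cytokine receptors at -0.11, transcription factors at -0.04, immediate early genes at -0.15, and heat shock chaperones and glycolysis genes at 0.01 each.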
